A study of Mus musculus with 8 samples.

Results

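Accessible chromatin far from genes was examined in cultured cells of mouse cutaneous squamous cell carcinoma (SCC), using the regions that were open in every library of an ATAC-seq study of focal adhesion kinase (FAK, encoded by *Ptk2*). ATAC-seq uses the Tn5 transposase to insert sequencing adapters into open DNA, and a peak is a stretch with more insertions than its surroundings within that library. The regions described here were chosen by their peak calls and by their distance from genes. Peaks of the 8 libraries on chromosomes 1 to 19, X and Y were joined wherever they shared 1 bp or more. This gave 69399 regions, and 17917 of them (25.8%) had a peak in each of the 8 libraries. Of those, 3507 had their centre more than 50 kb from the transcription start site (TSS) of every annotated protein-coding transcript (GENCODE M21, mm10). These 3507 constitutive remote regions were 5.05% of all regions, 19.6% of the constitutive regions and 17.4% of the 20134 regions beyond 50 kb. Within 50 kb of a TSS, 29.2% of regions were called in all 8 libraries. Of those 14410 regions, 7963 lay within 1 kb of a TSS, where 1074 regions were called in 1 library. At 10 to 50 kb, 4289 regions were called in 8 libraries and 7590 in 1, against 3507 and 6937 beyond 50 kb. At 1 to 10 kb these counts were 2158 and 4215. The regions within 1 kb thus raise the share within 50 kb. Because the calls selected the regions, these shares and counts are a description only.

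The cells came from SCCs raised with DMBA and TPA in K14CreER FAKflox/flox FVB mice, with Ha-Ras as the driver gene, and *Ptk2* was deleted in culture with 4-hydroxytamoxifen. All 4 lines therefore lack endogenous FAK and share this origin. FAK-/- cells, which were 1 clone, served as the control. Retroviruses carrying a *Ptk2* construct turned this clone into the 3 further lines, which express FAK-WT, FAK-nls (impaired in nuclear localization by the substitutions R177A, R178A, R190A, R191A, R216A and R218A) or FAK-kd (kinase-dead, K454R). Each line had 2 libraries, described in the study as biological replicates of cultured cells, so the tests cover the spread between cultures of these lines and not between tumours or clones.

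The libraries held between 24383 peaks (FAK-nls replicate 1) and 53703 peaks (FAK-WT replicate 1) on the kept chromosomes. The lists contain no read counts, and the sequencing depth behind them was not used here. As a check of the labelled cell type, called regions were sought within 1 kb of the TSS of marker genes. The promoter of *Itga6*, an integrin of basal keratinocytes, was called in 8 libraries and that of *Krt8* in 5, whereas *Krt14* was called in 1 and *Krt5*, *Krt18*, *Trp63*, *Cdh1* and *Epcam* in 0. Among genes marking other cell types, *Ptprc*, *Cd3e*, *Lyz2* and *Des* were called in 0 libraries, *Pecam1* and *Rbfox3* in 1, *Cdh5* in 2, and *Mitf* and *Pmel*, which mark melanocytes, in 8. The *Pmel* start lies 150 bp from that of *Cdk2*. The defining keratinocyte and epithelial promoters are thus largely without a call in these lists.

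Open regions far from promoters are commonly enhancers, which bind sequence-specific transcription factors and act on genes over distance, or sites of the insulator protein CTCF, which anchors chromatin loops. Genes of development and growth control often lie beside gene deserts, long stretches with no protein-coding gene that can hold many such elements. AP-1, a dimer of JUN and FOS family proteins that binds TGAGTCA or TGACTCA, is a major factor at enhancers of keratinocytes and of cells with active RAS signalling.

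The sequences below show the centres of the strongest regions that hold an AP-1 match there. They do not stand for the strongest regions as a whole, since those ranked 1 and 2 hold no AP-1 match. They are 120 bp windows of the forward strand of mm10, 5′ to 3′, from the 5 strongest regions with an AP-1 match in that window, with the match in capitals. Strength was the percentile rank of the region's strongest peak by −log10 p among all peaks of a library (100 is the highest), and regions were ordered by their lowest rank over the 8 libraries.

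chr11:110511561-110511680 (intron of *Map2k6*): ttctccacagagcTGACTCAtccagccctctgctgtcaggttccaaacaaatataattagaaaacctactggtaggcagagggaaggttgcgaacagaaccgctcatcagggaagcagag
chr1:127425114-127425233 (intron of *Mgat5*): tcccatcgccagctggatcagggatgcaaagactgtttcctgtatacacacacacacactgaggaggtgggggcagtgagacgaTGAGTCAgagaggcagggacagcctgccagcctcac
chr9:24943980-24944099 (between *Tbx20* and *Gm10181*): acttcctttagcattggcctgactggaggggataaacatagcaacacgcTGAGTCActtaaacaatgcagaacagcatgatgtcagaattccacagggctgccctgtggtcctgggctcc
chr12:116205974-116206093 (between *Vipr2* and *Wdr60*): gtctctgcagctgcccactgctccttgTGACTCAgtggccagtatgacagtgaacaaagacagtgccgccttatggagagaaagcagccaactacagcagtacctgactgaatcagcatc
chr2:148522154-148522273 (between *Cd93* and *Nxt1*): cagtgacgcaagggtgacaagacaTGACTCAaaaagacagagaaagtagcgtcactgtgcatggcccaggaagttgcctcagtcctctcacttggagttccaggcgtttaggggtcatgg

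For contrast, the 3 strongest regions with a match to the CTCF consensus in the central 120 bp are given in the same way. Their lowest ranks were 53.2, 49.2 and 47.7. These are the top of a much smaller set than that of the AP-1 regions, so the ranks of the printed sets are not compared.

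chr13:109776247-109776366 (nearest TSS *Pde4d*): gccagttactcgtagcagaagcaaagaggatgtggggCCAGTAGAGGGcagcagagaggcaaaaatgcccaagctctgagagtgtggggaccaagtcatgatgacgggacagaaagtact
chr17:89654487-89654606 (nearest TSS *Gm10184*): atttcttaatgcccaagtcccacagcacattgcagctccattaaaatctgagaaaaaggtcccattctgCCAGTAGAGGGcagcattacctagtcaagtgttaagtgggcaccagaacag
chrX:94865716-94865835 (nearest TSS *Zxdb*): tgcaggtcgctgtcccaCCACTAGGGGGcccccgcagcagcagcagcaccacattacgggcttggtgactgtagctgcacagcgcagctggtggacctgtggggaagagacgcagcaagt

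The 3507 regions lay at a median of 108 kb from the nearest protein-coding TSS (quartiles 70.6 and 189 kb). The distance was 50 to 100 kb for 1596 of them (45.5%), 100 to 200 kb for 1114, 200 to 500 kb for 629, 500 kb to 1 Mb for 151 and over 1 Mb for 17. More than 50 kb from every protein-coding TSS lie 1498 Mb, or 55.0% of the 2726 Mb considered, so there were 2.34 constitutive regions per Mb of this remote sequence, against 11.7 per Mb within 50 kb. On the autosomes the density ran from 1.81 per remote Mb on chromosome 4 to 3.48 on chromosome 13. Chromosome X had 0.502 per remote Mb and chromosome Y had 0 regions, which lies outside the autosomal range.

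By annotation, 1237 regions (35.3%; 95% Wilson interval 33.7 to 36.9) had their centre in an intron of a protein-coding gene, 54 (1.54%) in an exon and 2216 (63.2%) outside protein-coding genes. Within 1 kb of the start of a transcript of any type, noncoding RNAs included, lay 242 regions (6.90%), while 999 were more than 50 kb from every annotated transcript start. The intronic and exonic regions, each assigned to 1 host gene, were spread over 690 host genes, 383 of which held 1 region. *Macrod2*, *Slc39a11* and *Sox5* held 8 each, and *Dlgap2* and *Ptprm* 7 each. The gene model *Gm20388*, 4435 kb long, held 9. The median spacing to the next constitutive remote region was 45.3 kb, with 15.9% within 10 kb of another and 35.7% more than 100 kb from any other.

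Median width was 868 bp (quartiles 700 and 1154 bp), close to that of constitutive regions at 10 to 50 kb (864 bp) and narrower than that of constitutive regions within 1 kb (1173 bp). Median GC content of the central 500 bp was 45.2%, against 64.8% within 1 kb, and the median ratio of observed to expected CpG was 0.196 against 0.814. Remote regions called in 1 to 7 libraries had almost the same GC content (45.0%) and were narrower (458 bp).

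The strength of the regions was compared with that of other constitutive regions nearer to genes, because all of these were called in every library and differ by distance alone in the rule. By −log10 p, the median rank of the remote regions was 83.4 and 74.4 in the FAK-WT libraries, 77.9 and 72.5 in those of FAK-/- cells, 59.9 and 62.3 for FAK-nls and 70.1 and 79.6 for FAK-kd. Constitutive regions at 10 to 50 kb had 82.2, 73.4, 78.2, 72.9, 57.1, 58.2, 68.9 and 78.5 in the same order. The remote regions were thus higher in 6 of 8 libraries, by a mean of 1.35 ± 1.496 percentile points (SD, n = 8), and slightly lower in the FAK-/- pair (two-sided exact sign-flip permutation test, p = 0.031, adjusted p = 0.047 over 3 tests). Against constitutive regions at 1 to 10 kb they were higher in 8 of 8 libraries, by 3.37 ± 2.18 points (exact p = 0.0078, the smallest that 8 libraries can give, adjusted p = 0.023). Against those within 1 kb, which are mostly promoters, the difference was −0.69 ± 3.37 points and higher in 4 of 8 libraries (exact p = 0.55). The sign-flip tests treat the 8 libraries as independent, although each line gave 2. The mean difference from the 10 to 50 kb class was 1.09 points in FAK-WT cells, −0.33 in FAK-/- cells, 3.47 in FAK-nls cells and 1.16 in FAK-kd cells. Over these 4 line means the exact p was 0.25, and 0.125 against the 1 to 10 kb class, the smallest that 4 lines can give.

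This order depended on the measure of strength. Ranked by fold enrichment over the local background, the remote regions were above all 3 nearer classes, by 3.62, 11.3 and 8.64 points for 10 to 50 kb, 1 to 10 kb and within 1 kb. Ranked by pileup, the coverage in reads, they were below all 3, by −2.39, −6.67 and −10.5 points (exact p = 0.0078 for each of the 6 comparisons). In these medians the remote regions thus had lower coverage and a higher ratio to the local background. Median fold enrichment in them ran from 4.59 to 6.04 across libraries and median pileup from 9.18 to 23.2. In addition, the difference from the 10 to 50 kb class by −log10 p kept its side of 0.05 without either FAK-/- library, but the exact p was 0.0625, above the threshold, without any 1 of the other 6 libraries.

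**Figure D1:**
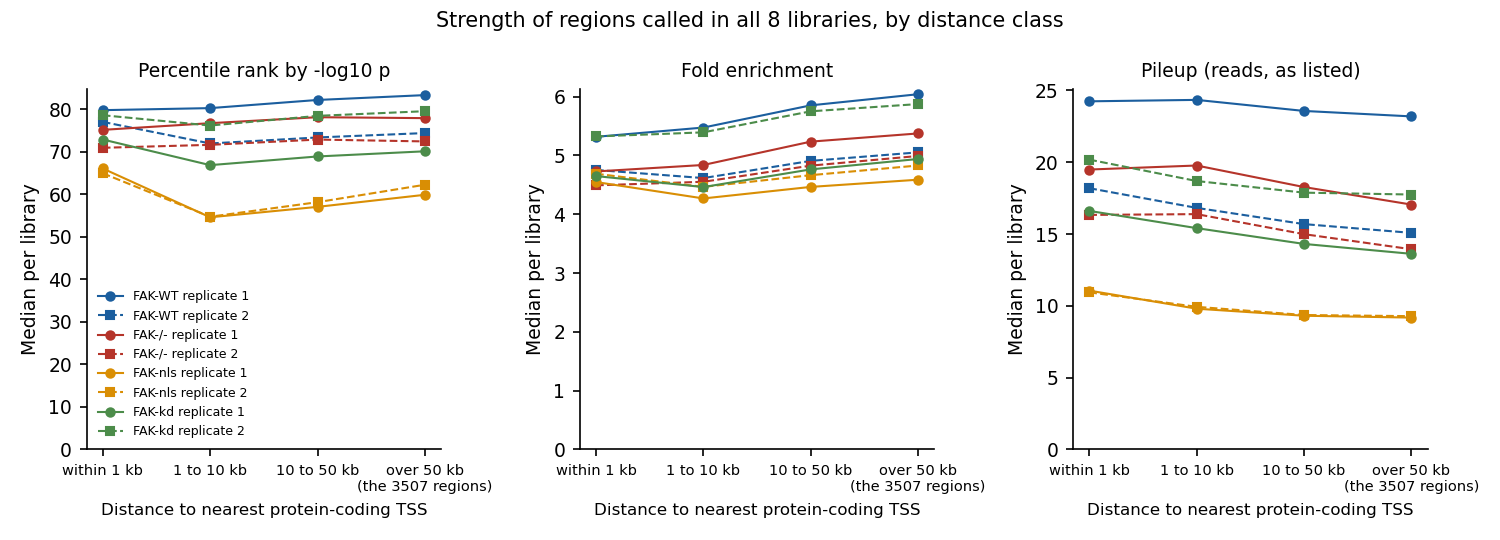
Median strength of regions called in all 8 libraries, by distance to the nearest protein-coding TSS (x axis), as percentile rank by −log10 p, as fold enrichment and as pileup in reads (y axes). Each line is 1 library, coloured by line of cells, and fold enrichment is higher for the 3507 remote regions than for every nearer class in each library, while pileup is lower than within 1 kb.

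Between lines, the mean of the 2 median ranks was 78.9 ± 6.31 in FAK-WT cells, 75.2 ± 3.87 in FAK-/- cells, 61.1 ± 1.67 in FAK-nls cells and 74.9 ± 6.67 in FAK-kd cells (SD, n = 2). FAK-WT exceeded the other 6 libraries by 8.51 points. A gap of that size arose in 5 of 28 possible pairs of libraries (exact permutation, two-sided, p = 0.18, where 0.036 is the smallest attainable). The difference was 4.05 without FAK-WT replicate 1 and 12.98 without FAK-WT replicate 2, and 1.35 with ranks taken among the constitutive regions alone. The libraries with fewest peaks, those of FAK-nls, also had the lowest ranks. Ranked among the 17917 constitutive regions only, the medians lay between 48.5 and 55.0 in all 8 libraries. Across the 3507 regions the ranks of 2 libraries correlated with Spearman's rho of 0.63 to 0.81 within lines (4 pairs) and 0.53 to 0.76 between lines (24 pairs). These values describe regions that share their sequence in every library and carry no test.

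A minority of the remote regions was strong everywhere. In all 8 libraries, 1312 (37.4%) were above the median of the library's peaks, 150 (4.28%) were in its top 10% and 11 in its top 1%. The strongest was chr11:109011563-109012161, 88.7 kb downstream of the TSS of *Axin2*, a negative regulator of WNT signalling. It was the first peak of every library, with a fold enrichment of 12.6 and 13.5 in FAK-WT cells, 13.0 and 13.1 in FAK-/- cells, 13.7 and 13.3 in FAK-nls cells and 13.3 and 13.4 in FAK-kd cells. These values overlapped between lines. The next, chr3:5860525-5860919 in a stretch of 864 kb between *Gm8797* and *1700008P02Rik*, had a fold enrichment of 13.1 to 16.01. Neither holds an AP-1 or a CTCF match, and the other 10 of the 12 strongest did not exceed 9.95-fold in any library. Both had a nearly constant fold enrichment across the 8 libraries, no list of artefact-prone regions was applied, and whether they are open chromatin at these positions was not tested.

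Among those 10, the intronic region chr11:110511196-110512046 in *Map2k6*, which encodes a kinase that activates p38, ranged from 8.09 to 9.59-fold. The intronic region chr1:127424716-127425632 in *Mgat5*, which encodes an enzyme that branches N-glycans, ranged from 7.05 to 8.56-fold, and the region chr15:68165889-68166688 in an intron of the zinc finger gene *Zfat* from 7.26 to 9.35-fold. The remaining 7 lay outside protein-coding genes. They were chr10:116739792-116740701 (nearest TSS *Myrfl*), chr9:24943602-24944478 (*Gm10181*), chr12:116205643-116206425 (*Wdr60*), chr6:143534963-143536056 (*Etnk1*), chr2:134342387-134343125 (*Hao1*), chr2:148521761-148522667 (*Cd93*) and chr9:87463715-87464675 (*Cep162*). The region nearest to *Etnk1*, 368 kb downstream of its TSS, had its centre 1 bp from the start of a transcript of another gene, *4930579D09Rik*. Of the 12 strongest, 7 held an AP-1 match in the central 500 bp.

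Some of the regions cannot be placed with certainty. A near-identical copy elsewhere on the assembled chromosomes (at least 90% identity over at least 50% of the length) was found for 4 regions, and 3 others overlapped an annotated ribosomal RNA gene, among them chr17:39843268-39846688 and chr17:39848121-39848804 (lowest ranks 98.7 and 97.8). No region matched the mitochondrial genome at a BLAST E-value of 1e-05, and 25 lay mostly in repeats. Without the 7 copies and ribosomal loci, the difference from the 10 to 50 kb class was 1.31 points, an alternative added after seeing the data.

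The farthest, chr14:82065035-82065931, lay 2065 kb from the TSS of *Olfm4* in the 4420 kb between it and *Pcdh17*, and its ranks ran from 90.5 to 98.1, with a fold enrichment of 9.11 and 7.74 in FAK-WT cells, 8.14 and 7.02 in FAK-/- cells, 7.42 and 6.84 in FAK-nls cells and 7.31 and 7.60 in FAK-kd cells. Next came chr18:27420720-27421897, 1667 kb from *Celf4* (ranks 64.6 to 93.4), and chr4:78234739-78236349, 1641 kb from *Ptprd* (60.3 to 90.8). The region chr2:46652559-46653204, 1535 kb from *Zeb2*, a repressor in epithelial-mesenchymal transition, varied most of these 5, from rank 13.7 in FAK-kd replicate 1 to 94.97 in FAK-kd replicate 2. The fifth, chr12:94231657-94232654, lay 1460 kb from *Flrt2* (32.7 to 95.5). The 168 regions beyond 500 kb had a mean of median ranks of 74.6 against 71.6 for the 1596 at 50 to 100 kb, higher in 6 of 8 libraries (difference 2.96 ± 3.90, SD).

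At the threshold, the members just inside were chr14:65903614-65904234 (50011 bp from *Scara3*), chr1:54713063-54714358 (50018 bp, *Ankrd44*) and chr13:63140736-63141436 (50026 bp, *2010111I01Rik*), with fold enrichments of 5.04 to 7.03, 4.31 to 5.91 and 4.78 to 7.70. Just outside were chr9:46072572-46073930 (49986 bp, *Sik3*), chr9:34538451-34539388 (49983 bp, *Kirrel3*) and chr3:98062824-98064170 (49959 bp, *Notch2*), with 4.10 to 6.47, 4.32 to 7.07 and 3.66 to 5.07.

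Whether the strength of these regions differed with FAK status was tested with limma on the log2 fold enrichment of the strongest peak, quantile normalised, with Benjamini-Hochberg adjustment over all 17917 constitutive regions. Since every region was called in every library, this compares degrees of opening and not presence. A region that fell below the call in any library was left out by the rule before the test. The counts below therefore do not cover such regions, and the rule narrows the differences that can be found. Of the 3507 remote regions, 1 passed an adjusted p of 0.05 between FAK-WT and FAK-/- (1 of all 17917 regions, 0.00558%), 0 between FAK-WT and FAK-nls (0 of all, 0.0%) and 1 between FAK-WT and FAK-kd (3 of all, 0.0167%). At an unadjusted p under 0.05, limma gave 351, 623 and 303 of them (10.0%, 17.8% and 8.64%), against 6.39%, 15.3% and 5.47% of all constitutive regions. The median difference over the remote regions was −0.02, 0.04 and 0.00 on the log2 scale, and the central 95% of the differences lay between −0.39 and 0.42, −0.42 and 0.53, and −0.35 and 0.43. The median standard error of a difference was 0.15. With 2 libraries per line, these counts do not show that differences of the size of that central range were absent. With pileup in place of fold enrichment, limma called 16, 72 and 4 of the remote regions (34, 213 and 19 of all), so the counts depend on the measure.

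The 1 region called in both contrasts was the same, chr15:90377970-90378431. It lies 154 kb downstream of the TSS of *Alg10b*, which encodes a glucosyltransferase of N-glycan synthesis, in the 254 kb between that gene and *Cpne8*. Its fold enrichment was 9.56 and 8.40 in the FAK-WT libraries, 4.32 and 3.48 in those of FAK-/- cells, 4.65 and 4.88 for FAK-nls and 4.30 and 4.56 for FAK-kd. Both FAK-WT libraries were above the other 6, which lay between 3.48 and 4.88. Of its sequence, 45.2% is repeat. The log2 difference was 1.10 ± 0.14 (SE) against FAK-/- (limma, adjusted p = 0.012), 0.99 ± 0.14 against FAK-kd (adjusted p = 0.022) and 0.74 ± 0.14 against FAK-nls (adjusted p = 0.070). The 3 contrasts share the FAK-WT libraries and are not independent. Without any 1 library of the 2 lines compared, the call was lost (limma, adjusted p from 0.081 to 0.94 against FAK-/- and from 0.15 to 0.34 against FAK-kd), while the difference stayed between 0.93 and 1.21. With pileup the call against FAK-kd was lost too (limma, adjusted p = 0.061). The central 300 bp of this region, on the forward strand of mm10, are printed because it is the 1 region whose strength passed the test, with its AP-1 match in capitals. Its RUNX match, TGTGGTT or its reverse complement, lies in the central 500 bp as well.

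chr15:90378050-90378349: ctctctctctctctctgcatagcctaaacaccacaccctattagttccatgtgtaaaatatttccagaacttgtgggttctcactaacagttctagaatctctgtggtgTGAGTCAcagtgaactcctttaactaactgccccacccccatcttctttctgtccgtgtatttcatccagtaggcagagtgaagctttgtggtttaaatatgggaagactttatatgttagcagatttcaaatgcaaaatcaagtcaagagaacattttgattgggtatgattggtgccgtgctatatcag

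The other regions with the smallest p in each contrast did not pass the adjusted threshold in limma and are given as values. Several passed in other limma fits, with median centring those near *Il1rapl1* (adjusted p = 0.037) and *Myo10* (0.040), and with pileup those near *Myo10* (0.021, log2 difference −1.48), *Btg1* (0.031), *Ripply2* (0.032) and *Ntrk3* (0.0089, log2 difference −1.37). The difference near *Dpt* went from −0.66 to −0.18 with pileup. Against FAK-/-, the quantile-normalised log2 fold enrichment of chrX:87528974-87529617, in an intron of *Il1rapl1*, was 2.98 and 2.80 in FAK-WT and 2.09 and 1.95 in FAK-/- (limma, adjusted p = 0.11). At chr15:25559725-25560116, 62.6 kb upstream of *Myo10*, which encodes a myosin of filopodia, FAK-WT was lower, with 1.98 and 1.90 against 2.78 and 2.89 (limma, adjusted p = 0.16). FAK-WT had 2.69 and 2.95 against 1.91 and 2.09 at chr14:71338095-71338624 near *Gfra2*, and 2.11 and 2.17 against 2.76 and 2.83 at chr1:164631657-164632792 near *Dpt*, which encodes the matrix protein dermatopontin. In each of these 4 regions the FAK-WT and FAK-/- libraries did not overlap, a pattern that the choice by smallest p selects for.

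Against FAK-nls, the smallest adjusted p in limma was 0.070, shared by all 5 regions named by the rule. They were chr10:96697486-96698298, 80.3 kb downstream of the antiproliferative gene *Btg1* (log2 2.63 and 2.65 in FAK-WT, 1.83 and 1.86 in FAK-nls), chr9:86961562-86962256 near *Ripply2* (2.75 and 2.70, 1.94 and 2.02), chr7:77786755-77787393, 791 kb from *Ntrk3* (1.89 and 1.96, 2.76 and 2.69), the region near *Alg10b*, and chr1:77878957-77879583, 318 kb from *Pax3* (2.97 and 3.03, 2.097 and 2.37). FAK-WT was the higher line in 4 of these and the lower in the region near *Ntrk3*. Against FAK-kd, the regions after that near *Alg10b* were in an intron of *Pde8b* (log2 2.60 and 2.63 in FAK-WT, 1.88 and 1.68 in FAK-kd), 441 kb from *Serpinb8* (2.93 and 2.70, 2.08 and 1.95), in an intron of *Loxhd1* (2.76 and 2.75, 2.03 and 1.75) and 52.7 kb upstream of *Ezr*, which encodes ezrin, a linker of membrane and actin (2.61 and 2.85, 1.99 and 2.05). FAK-WT was higher in all of them, with adjusted p from 0.12 to 0.23 in limma.

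**Figure D2:**
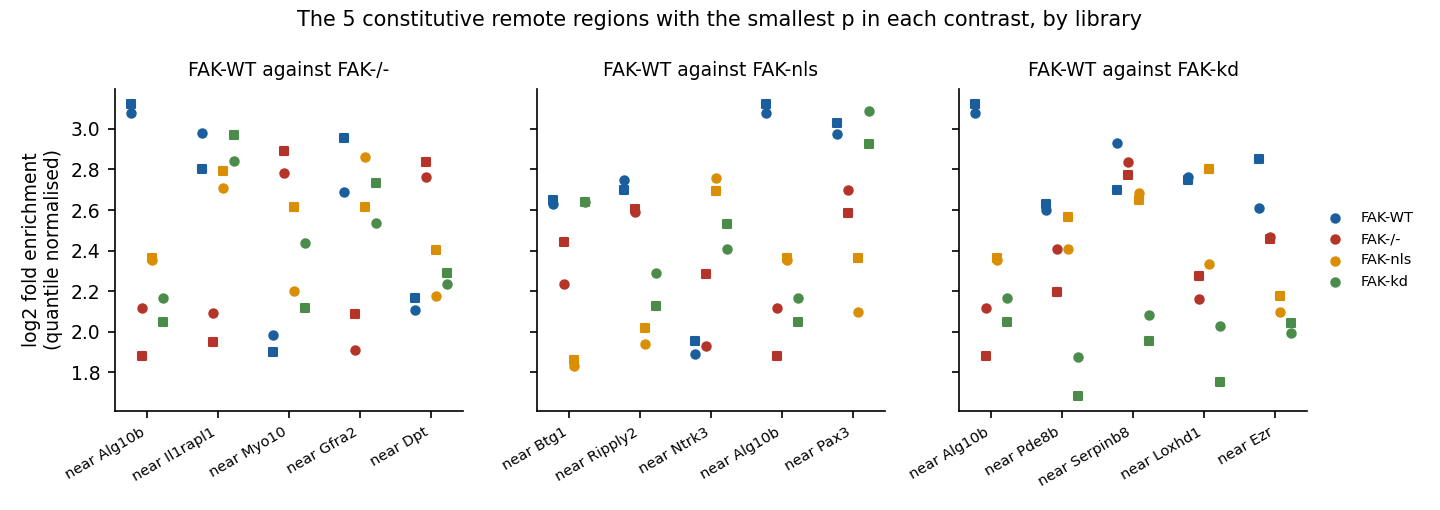
Quantile-normalised log2 fold enrichment (y axis) in each of the 8 libraries of the 5 constitutive remote regions with the smallest limma p in each contrast (x axis, named by nearest gene; circles replicate 1, squares replicate 2, colours the lines). The region near Alg10b has FAK-WT values of 3.08 and 3.12 above all other libraries, and FAK-WT is the lower line near Myo10, Dpt and Ntrk3.

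Gene deserts were defined as stretches of at least 500 kb between the bodies of protein-coding genes. There were 728, which cover 822 Mb or 30.1% of the sequence considered. Of the remote constitutive regions, 962 (27.4%; 95% Wilson interval 26.0 to 28.9) lay in a desert, against 10.3% of all regions and 3.15% of constitutive regions at 10 to 50 kb. The distance rule itself raises this share. The share also depends on the definition: it was 13.0% for deserts of at least 1 Mb and 1.43% for deserts between gene bodies of any type. Among remote regions called in 1 to 7 libraries the share was 31.4% (30.7 to 32.1), an interval above that of the constitutive ones. Per Mb of sequence beyond 50 kb, deserts held 1.25 constitutive regions and the remainder 3.50. Per Mb of whole desert length the density was lower in longer deserts, from 1.67 in the 433 deserts under 1 Mb to 1.11 in the 220 of 1 to 2 Mb and 0.560 in the 75 longer ones. Chromosome Y, with 0 of the regions in 75.5 remote Mb, is included in these densities and in the 728 deserts. In rank by −log10 p the regions inside deserts had a mean of medians of 72.5 and those outside 72.4, with the inside group higher in 4 of 8 libraries. In fold enrichment the means of medians were 5.34 and 5.16, a difference that was not tested.

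The regions were spread unevenly over the deserts. At least 1 was found in 318 deserts (43.7%), while 410 had 0, including 153 with no region of any kind. The deserts of chromosome Y, which holds 0 constitutive remote regions, are among the 410. Empty deserts were not counted by chromosome, so these numbers do not describe the autosomes alone. The 65 deserts with 5 or more held 453 of the 962. The largest empty ones were *Pcdh20* to *Pcdh9* (4542 kb), *Cntnap5b* to *Cdh20* (4283 kb), *Slc39a10* to *Tmeff2* (4008 kb) and *Dsel* to *Cntnap5a* (3820 kb), with 1 to 5 regions of any kind each. Among the fullest were *Adamts5* to *N6amt1* on chromosome 16 (1452 kb) and *Myc* to *Gsdmc* on chromosome 15 (1786 kb), with 16 each. *Kif2a* to *Ndufaf2*, *Klf4* to *Actl7b*, *Ptbp2* to *Rwdd3*, *Ttll7* to *Adgrl2* and *Zeb2* to *Acvr2a* had 10 each, in lengths from 981 to 3697 kb.

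**Figure D3:**
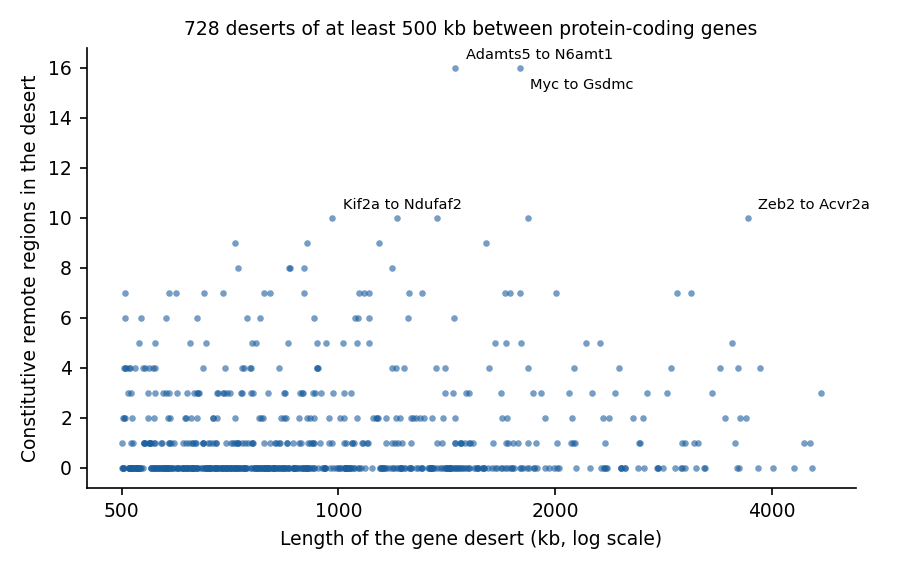
Number of constitutive remote regions (y axis) in each of the 728 deserts of at least 500 kb (points) against desert length (x axis, log scale). The deserts Adamts5 to N6amt1 and Myc to Gsdmc hold 16 each, and 410 deserts hold 0, those of chromosome Y included.

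In the desert next to *Adamts5*, which encodes an aggrecan-cleaving protease, 10 of the 16 regions held an AP-1 match. Its strongest, chr16:86852315-86853844, 501 kb upstream of the methyltransferase gene *N6amt1*, had no match to the motifs searched and a fold enrichment of 6.24 to 8.91. The strongest of the *Kif2a* desert, chr13:107484357-107486191, was stronger by rank than any other region in these 7 deserts, with a lowest rank of 97.1 and 6.33 to 8.07-fold enrichment. That desert holds *Zswim6*, which the annotation used here lists without a protein-coding transcript, and chr13:107888885-107891452, with a GC content of 71.6%, had its centre 104 bp from a *Zswim6* start. Both the status of this stretch as a desert and that of this region as remote rest on that annotation. In the desert beside *Klf4*, which encodes a transcription factor of differentiating epidermis, 3 regions had *Klf4* as the nearest TSS and the other 7 the gene model *Gm26657*, and the strongest, chr4:56323173-56323881, had a lowest rank of 61.2. The strongest regions of the other deserts were chr3:119915835-119916934, 133 kb upstream of the splicing regulator gene *Ptbp2* (lowest rank 90.7), chr3:147802257-147803124, 906 kb downstream of *Ttll7* (87.4), and chr2:48498041-48499784, 315 kb upstream of the activin receptor gene *Acvr2a* (84.6). A CTCF match occurred in 1 of the 82 regions of these 7 deserts, in that between *Ptbp2* and *Rwdd3*.

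The regions had 1781 different genes as their nearest, 946 of them with 1 region. The 117 genes with 5 or more accounted for 724 regions (20.6%). *Myc*, a driver of cell growth, had most, with 14, followed by *Sox9*, a transcription factor of hair follicle progenitors, with 13, *Ptbp2* with 12, and *Med13l*, *N6amt1* and *Zfp608* with 11 each. *Slc39a11* had 10, and *Nr2f2* and *Ttll7* had 9. These counts were not adjusted for the space around each gene.

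All 14 regions nearest to *Myc* lay downstream of its TSS, between 50.8 and 481 kb, and 8 held an AP-1 match. The noncoding gene *Pvt1* lies there, and at least 11 of the 14 had their centre inside it. The strongest was chr15:62078936-62079980 at 92.0 kb, with a fold enrichment of 5.86 and 5.78 in FAK-WT cells, 6.29 and 4.69 in FAK-/- cells, 5.53 and 6.13 in FAK-nls cells and 5.01 and 8.26 in FAK-kd cells, and ranks from 78.7 to 98.99. Both extremes of fold enrichment fell in lines other than FAK-WT, and the lines overlapped. At 341 kb, chr15:62328228-62329232 had 4.77 to 6.64-fold enrichment and ranks of at least 76.2. The closest of the 14, chr15:62037626-62038765, was the weakest, with ranks from 6.28 to 38.9, and had its centre 134 bp from a *Pvt1* start and a GC content of 59.2%.

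The 13 regions nearest to *Sox9* lay on both sides, 7 upstream between 161 and 618 kb in the direction of *Kcnj2* and 6 downstream between 219 and 320 kb toward *Slc39a11*, and 8 held an AP-1 match. The strongest was chr11:113000846-113001687, 219 kb downstream, with a fold enrichment of 7.53 and 6.21 in FAK-WT cells, 7.51 and 7.31 in FAK-/- cells, 6.71 and 6.85 in FAK-nls cells and 6.11 and 9.46 in FAK-kd cells. Again the lines overlapped. At 609 kb upstream, chr11:112172853-112174123 kept ranks of 86.1 to 98.8, whereas chr11:112324575-112325198 at 457 kb had 2.29 to 31.6.

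**Figure D4:**
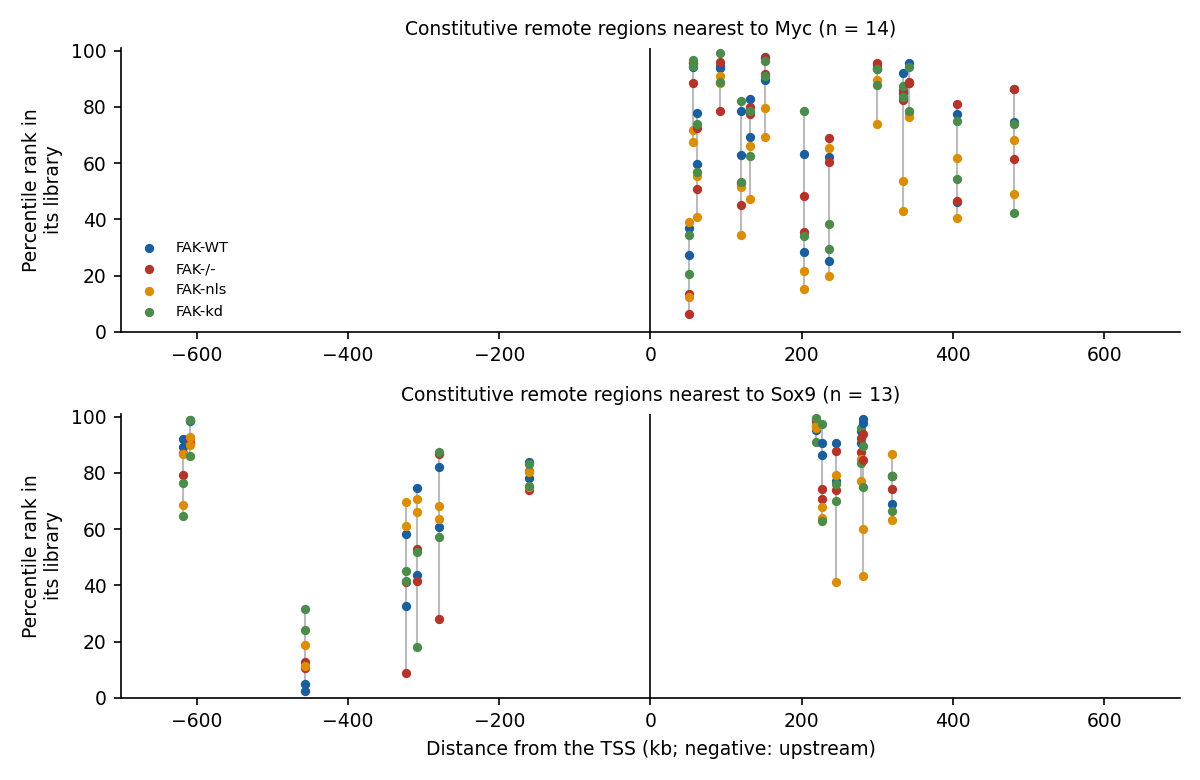
Percentile rank by −log10 p (y axis) in each library (points, coloured by line) of the constitutive remote regions nearest to Myc and Sox9, at their distance from the TSS in kb (x axis, negative values upstream). All 14 Myc regions lie downstream, and the 13 Sox9 regions lie on both sides.

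Lists of chosen genes were counted beside all 21829 protein-coding genes, of which 8.16% were the nearest gene of at least 1 constitutive remote region. Of 22 epithelial regulators, 8 had one (36.4%), namely *Sox9* 13, *Runx1* 6, *Sox2* 6, *Klf4* 3, *Klf5* 3 and 1 each for *Tfap2a*, *Tfap2c* and *Trp63*. Of 11 AP-1 genes and partners, 3 had one, *Jun* with 4, *Maf* with 3 and *Fosl2* with 2, and *Junb*, *Jund*, *Fos* and *Fosl1* had 0. Of 19 signalling and growth genes, 8 had one (42.1%), with *Myc* 14, *Tgfb2* 5 and *Ccnd1* 4, while *Egfr* had 0. Of 14 adhesion and cytoskeleton genes, 7 had one, with the focal adhesion genes *Tns3* 6 and *Lpp* 4, and *Ptk2* itself with 2. Of 20 genes listed as neuronal adhesion genes in long deserts, 6 had one and 14 had 0, among them *Cntnap2*, *Pcdh9* and *Lrp1b*. That list also holds genes of other kinds, such as the transcription factor gene *Sox5* and the growth factor gene *Nrg1*. Of its 27 regions, *Sox5* had 8, *Nrg1* 7 and *Dlg2* 6, so its count says little about adhesion genes. The lists were drawn up with earlier results of these data known, and all 5 shares exceed that of all genes, the neuronal list included.

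Sequence was not used by the rule. An AP-1 match was present in the central 500 bp of 2016 of the 3507 regions (57.5%; 95% Wilson interval 55.8 to 59.1, which counts regions only), against 35.3% of all 69399 regions of the same window. Among these matches, 1457 regions had 1, 489 had 2 and 70 had 3 or more. The shuffled sequence ACTGAGT or ACTCAGT was found in 13.7%. It can overlap an AP-1 match (TGACTCA followed by GT contains it), so it is not independent of AP-1. AP-1 matches gathered near the centre, with 31.5% of 2658 matches within 50 bp of it, where 20% of the window lies, against 24.95% of 521 shuffled matches.

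By class, an AP-1 match was held by 55.4% of constitutive regions at 10 to 50 kb, 49.9% at 1 to 10 kb and 6.27% within 1 kb. The difference from the 10 to 50 kb class was 2.13 percentage points, with a 95% Newcombe interval of −0.08 to 4.34 that includes 0. Compared with remote regions called in 1 to 7 libraries (41.3%), the constitutive ones were higher by 16.2 points (14.4 to 18.0). With each further library in which a remote region was called the share was higher, from 32.0% of the 6937 called in 1 library through 48.0% at 4 to 54.1% at 7. At 8 libraries it was the 57.5% given above, and the shuffled sequence went from 10.8% at 1 library to 13.7% at 8. Median width also rose, from 288 to 868 bp, and in the central 200 bp, shorter than most regions, the AP-1 share went from 21.9% to 35.6%. In that window it was 30.6% at 2 libraries and 35.4% at 7, close to the share at 8. In the central 500 bp the 95% Wilson intervals at 7 (51.4 to 56.7) and 8 libraries (55.8 to 59.1) overlapped.

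The CTCF consensus was matched in 49 constitutive remote regions (1.40%; 1.06 to 1.84), against 4.58% of remote regions called in fewer libraries (difference −3.19 points, −3.66 to −2.64), 2.26% of constitutive regions at 10 to 50 kb and 5.04% of all regions. By number of libraries the share was 4.67% at 1, highest at 2 (6.71%), lowest at 7 (0.901%) and 1.40% at 8, so the constitutive regions were not below those called in 7. With 1 mismatch allowed, the shares were 12.6% and 19.6%. In the 49 regions with a CTCF match the median rank was below that of the others in 7 of 8 libraries, with a mean difference of −6.78 ± 4.29 points (SD).

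**Figure D5:**
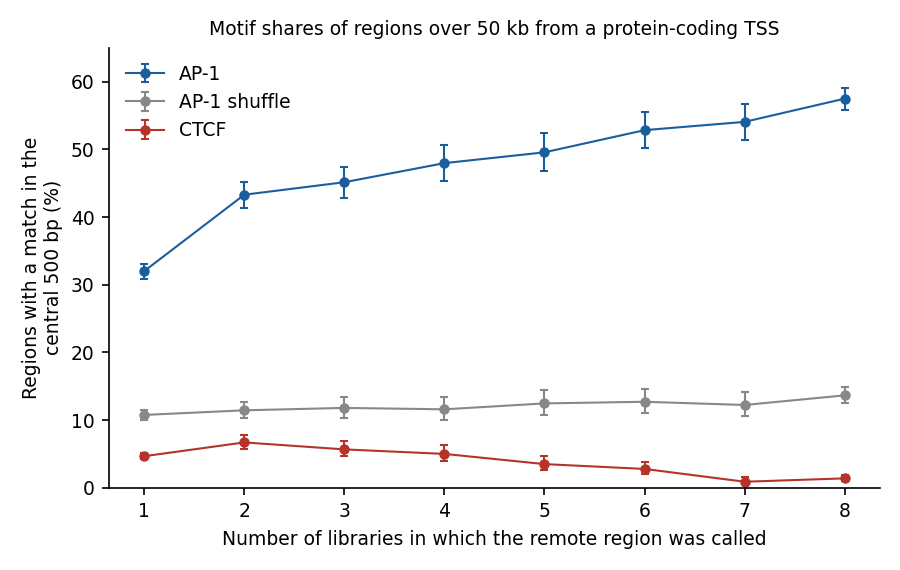
Share (%) of regions beyond 50 kb with an exact match in the central 500 bp (y axis), by the number of libraries in which they were called (x axis), with 95% Wilson intervals. AP-1 goes from 32.0% at 1 library to 57.5% at 8, the shuffled AP-1 sequence from 10.8% to 13.7%, and CTCF lies between 0.901% at 7 libraries and 6.71% at 2.

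For the other motifs the differences were small. RUNX (TGTGGTT) was matched in 18.1%, the C/EBP consensus in 23.9%, ETS (AGGAAGT or CGGAAGT) in 17.4% and TEAD (ACATTCC) in 12.1% of the constitutive remote regions, higher than in remote regions called in fewer libraries by 2.76, 2.16, 1.46 and 1.51 points, with intervals above 0. In the central 200 bp the intervals for RUNX (−0.08 to 1.94), ETS (−0.46 to 1.44) and TEAD (−0.61 to 1.01) included 0, and over whole regions, which differ in width, the differences were 11.9, 17.2, 12.2 and 9.46 points. The shuffled AP-1 sequence was higher by 2.20 points (0.999 to 3.47). The p53 family consensus was present in 4.73%, the cAMP response element (CRE) in 0.456% and the GRHL consensus in 6 regions, and their intervals of the difference included 0. Within 1 kb of a TSS, ETS reached 22.6% and CRE 3.63%. All motifs were read on both strands, and a match says only that these letters are present.

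Regions with an AP-1 match were stronger than those without in every library. Their median rank was higher by 5.54 and 6.80 points in FAK-WT cells, 7.66 and 7.56 in FAK-/- cells, 7.92 and 7.88 in FAK-nls cells and 8.23 and 6.03 in FAK-kd cells. The mean was 7.20 ± 0.98 points (SD, n = 8; two-sided exact sign-flip permutation test, p = 0.0078, the smallest possible). The regions with a match were also narrower (median 810 against 1007 bp), and a part of width in the difference was not tested. Ranked by pileup, the difference was 3.43 points. Over the 4 line means, 7.20 points, the exact p was 0.125, again the smallest possible. By line, the AP-1 regions exceeded the others in log2 fold enrichment by 0.13 ± 0.01 in FAK-WT cells, 0.14 ± 0.01 in FAK-/- cells, 0.09 ± 0.01 in FAK-nls cells and 0.144 ± 0.0005 in FAK-kd cells (SD, n = 2). The FAK-nls libraries, which had the fewest peaks, were lowest. FAK-WT differed from the other 6 by 0.0072, a gap reached or passed in 24 of 28 possible pairs of libraries (exact permutation, two-sided, p = 0.86). Leaving out 1 library moved it between −0.00055 (without FAK-nls replicate 2) and 0.0138 (without FAK-WT replicate 2), so its sign is not settled. This pair of comparisons was added after the motif shares had been seen.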

How the data were processed

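The submitters' processing notes name mm10 and MACS2 2.1.1. The authors aligned reads with the bcbio pipeline and called broad peaks in every library separately at a stated q-value of 0.05. How duplicate reads were treated is not given in the sources used here. The deposited lists give each peak's pileup (coverage signal in reads), −log10 p-value and −log10 q-value against the local background, and fold enrichment (the authors' ratio of pileup to background). Pileup is not scaled between libraries as far as stated, so ranks within a library or normalised values were compared. Between 0.784% and 3.83% of a library's peaks have a deposited q above 0.05, and the lists were used as deposited. Peaks outside the kept chromosomes (15 to 25 per library) were left out. The largest share of identical peaks between 2 libraries was 0%.

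Each region took the values of its strongest peak by −log10 p in each library. Distances are from GENCODE M21 protein-coding transcript starts to the region's centre. Sequences were read from GRCm38 (the mm10 assembly, RefSeq) with pysam 0.24.0. Motifs were exact matches to 10 consensus sequences. Fits used limma 3.58.1 (R 4.3.3) on 4 groups without a replicate block, tested on simulated data first. Copies were sought with minimap2 2.31 and mitochondrial matches with BLAST 2.17.0. Exact permutation tests and intervals used scipy 1.17.1. Wilson and Newcombe intervals cover the counting of regions only.

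Regions named are the 12 with the best lowest rank, the 5 farthest from a TSS, the deserts with most members (ties included) with their strongest region, the 5 with the smallest p per limma contrast, and 3 on each side of 50 kb. The members, gene lists, tests and alternatives were chosen with earlier results of these data known. *Sox9*, the printed *Myc* regions and the host genes were described after their values were seen. A marker gene is not reported here.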

Additional observations from a re-analysis of the deposited data

How the results depend on the processing

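The lists hold no read counts and sequencing depth was not used here, so a region without a call in a library may still be open there. The number, 3507, became 1709 with a −log10 q of at least 3, 1355 where peaks had to cover 50% of the region, 5502 at 25 kb, 1911 at 100 kb and 999 beyond starts of transcripts of any type, and stayed within 1.5 times (2468 to 3470) under the 5 other settings. Leaving out 1 library at a time gave 3508 (without FAK-WT replicate 1) to 4074 (without FAK-nls replicate 1). Against the 10 to 50 kb class, strength ranked by pileup reversed to −2.39, and leaving out 1 library gave 0.95 to 1.60. Against the 1 to 10 kb class, pileup gave −6.67. Within 1 kb, fold enrichment gave 8.64 and pileup −10.5. With the means of the 4 lines in place of 8 libraries, a test added after seeing the data whose smallest exact p is 0.125, the differences of 1.35, 3.37 and, for AP-1 regions, 7.20 points did not pass the threshold. The cause was not tested.

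The limma counts against FAK-/- went from 1 to 3 with median centring and 16 with pileup. Pileup gave 72 instead of 0 against FAK-nls and 4 instead of 1 against FAK-kd. Leaving out 1 library gave 0 to 1 against FAK-/- and against FAK-kd. Where this leaves a line with 1 library, it is assumed to vary like the others. The replicate block left the counts of remote regions at 1, 0 and 1 (over all constitutive regions, that against FAK-kd went from 3 to 2), the difference in median rank at 8.51 (exact p = 0.19 over 16 choices) and that of AP-1 regions at 0.0072, and changed no call among the remote regions. Whether same-numbered libraries were prepared together is not stated in the sources used here. The deviations of same-numbered libraries correlated between −0.20 and 0.06 across pairs of lines, which does not settle it.

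The AP-1 share was 35.6% in the central 200 bp, 72.8% in whole regions and 61.0% with an equal number of peaks, and its difference from other remote regions 7.60, 28.2 and 10.9 points. The CTCF share was 0.54%, 2.94%, 1.05% at 100 kb and 12.6% with 1 mismatch, and its difference −2.54 and −2.36 points, −2.25 with an equal number of peaks and −7.03 with 1 mismatch. The desert share was 13.0% for deserts of 1 Mb and 1.43% between genes of any type.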
